A study of Mus musculus with 14 samples.

Results

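The smooth muscle contractile genes are a set of 35 genes whose products build and control the contractile apparatus of vascular smooth muscle, and their RNA was measured in the aorta and the liver of BT3xHuBL and HuBL mice. The members were chosen by gene symbol, as the rows of 2 count tables that carry a listed name, and all 35 were found among the 24732 features of each table. There were 14 libraries in 4 groups: 3 BT3xHuBL aortas, 3 HuBL aortas, 4 BT3xHuBL livers and 4 HuBL livers. Every mouse received an ordinary laboratory diet, and the labels give 52 weeks as the time. The abbreviations of the strains are not explained in the labels. From the wider literature, HuBL stands for mice transgenic for human apolipoprotein B, which would be common to all 4 groups, and the BT lines add a T cell receptor transgene directed at that protein. The comparison asks how the added receptor goes with transcript levels in the vessel wall and the liver. Expression of the transgenes was not analysed here, so the genotype labels were not checked against the counts. The labels do not say whether libraries came from separate animals, and p-values therefore reflect only how far these libraries vary, and that variation may be technical.

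Smooth muscle cells of the arterial media contract when myosin light chain is phosphorylated by a calcium-dependent kinase and slides along smooth muscle actin, and they relax when myosin phosphatase removes the phosphate. Many genes of this apparatus are switched on by serum response factor (Srf), which binds the CArG box, together with its coactivator myocardin (Myocd). In atherosclerosis, smooth muscle cells that enter plaques are known to lower these genes and to take up a modulated, matrix-producing state.

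The promoters that carry the strict CArG box are shown because Srf and Myocd act through that element. RefSeq promoters (GRCm38.p6, from 250 bases before the start site to 50 bases after it) were matched by symbol for 30 of the 35 members, and Actg2, Itga7, Myh11, Myocd and Tagln had no match. The strict box has 2 C bases, then 6 bases that are each A or T, then 2 G bases, and it reads as the same pattern on both strands. It was found in 5 of 36 member promoters (13.9%), and in 535 of all 32851 promoters in the table (1.63%). The boxes are in capitals, with 25 bases on each side where the window allows, and the distance is that of the first base of the box from the start site.
Cnn2 (chr10:79988519-79988578, plus strand, box at -56): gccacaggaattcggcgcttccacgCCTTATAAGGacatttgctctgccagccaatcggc
Myl6 (chr10:128493025-128493084, minus strand, box at -50): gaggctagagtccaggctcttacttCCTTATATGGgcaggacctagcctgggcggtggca
Myl9 (chr2:156775278-156775337, plus strand, box at -161): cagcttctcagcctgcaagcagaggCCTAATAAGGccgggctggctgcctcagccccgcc
Srf (chr17:46556190-46556269, minus strand, boxes at -82 and -62): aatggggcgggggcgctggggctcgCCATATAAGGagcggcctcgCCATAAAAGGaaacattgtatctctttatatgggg
Vcl (chr14:20929148-20929205, plus strand, box at -227): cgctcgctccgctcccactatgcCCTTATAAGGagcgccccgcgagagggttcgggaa
Srf was the member with 2 boxes in its window, so the gene that encodes the CArG binding factor carries the element itself. The promoter of Acta2, the smooth muscle actin gene, is shown whole, with its single CATTCC element (MCAT, bound by TEAD factors) in capitals as it reads on the opposite strand, at -146. The Acta2 window has no strict CArG box, but it does contain ccctatatgg and ccttgtttgg. Both miss the strict pattern only by a C or G among the middle bases. Such looser boxes were not searched for in any promoter.
Acta2 (chr19:34255324-34255623, minus strand): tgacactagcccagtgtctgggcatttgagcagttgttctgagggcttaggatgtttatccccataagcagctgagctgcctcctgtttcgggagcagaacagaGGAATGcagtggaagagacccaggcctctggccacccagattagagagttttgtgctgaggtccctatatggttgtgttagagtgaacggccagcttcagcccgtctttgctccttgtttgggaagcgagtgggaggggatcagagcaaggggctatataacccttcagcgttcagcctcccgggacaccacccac
CATTCC, searched on both strands, was present in 10 of the 36 member promoters (27.8%) and in 14.7% of all promoters. TATAAA (the TATA box), searched on both strands, was present in 4 of the 36 member promoters (11.1%) and in 13.6% of all promoters. A match describes letters in this window and does not show binding.

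Total counts per library ran from 41933263 to 65539765 in aorta and from 13228123 to 17992459 in liver. Member genes took 2.77% to 3.46% of the counts in BT3xHuBL aortas and 2.82% to 3.32% in HuBL aortas, against 0.0780% to 0.0953% in BT3xHuBL livers and 0.0772% to 0.0833% in HuBL livers. The aorta label therefore stood with its defining markers: Acta2, Myh11, Tagln, Cnn1, Lmod1 and Myocd summed to 11616 to 15712 CPM in BT3xHuBL aortas and 12636 to 14820 CPM in HuBL aortas. CPM are counts scaled to a common library size, with TMM factors computed within each tissue. The counts were made near the 3′ ends of transcripts and were not divided by gene length, so levels are not compared between genes.

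In the aorta, the contractile apparatus as a whole stood at like levels in BT3xHuBL and HuBL mice, and its coactivator gene Myocd stood apart, with 28.0 ± 6.24 CPM in BT3xHuBL and 13.5 ± 1.02 CPM in HuBL aortas (SD, n = 3 each) and no overlap between the groups. All 35 members passed the filter on low counts. None passed edgeR's quasi-likelihood test of BT3xHuBL against HuBL at an adjusted p of 0.05, where 0.026% of all 15400 features tested did so (4 features). Of the 35, 2 had an unadjusted p under 0.05 (5.71%), against 4.08% of all features. DESeq2 called 1 member, Myocd, where 0.428% of all features were called, and limma-voom called 0 members and 0.0% of features. The members' log2 fold changes had a median of 0.01, against -0.00 for all features, and 32 of 35 (91.4%) were smaller than 0.25 in size, against 79.7% of all features. In bulk tissue, fewer smooth muscle cells and less RNA per cell cannot be told apart.

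Myocd, the heart- and smooth-muscle-restricted coactivator of Srf, lies on chromosome 11 from 65176561 to 65269989 on the minus strand (GENCODE M21, GRCm38, protein-coding). It measured 34.8, 26.8 and 22.5 CPM in BT3xHuBL aortas, against 13.6, 12.4 and 14.4 CPM in HuBL aortas. Every BT3xHuBL library lay above every HuBL library, and the BT3xHuBL libraries were spread more widely. Among members Myocd alone had groups that did not overlap, a pattern that 4.38% of all features showed in this direction and 9.27% in either. The log2 fold change was 1.06 (SE 0.15, 95% interval 0.72 to 1.39), with an edgeR adjusted p of 0.0881, above the threshold of 0.05. Over 12 alternatives, which included other tools and each library left out, the log2 fold change stayed between 0.88 and 1.19 and the adjusted p ranged from 1.21e-07 to 0.448. It was called by DESeq2 (adjusted p = 1.21e-07), by edgeR without the filter on low counts (0.0191, background 0.0473%) and by edgeR without BT3xHuBL replicate 3 (0.00761, background 0.172%). An exact two-sided permutation test gave p = 0.1, the smallest that 3 against 3 libraries allow. Groups that do not overlap always give this value, so it adds nothing to the separation above. Set against the myosin it activates, Myocd measured 7.90, 8.43 and 5.44 CPM per 1000 CPM of Myh11 in BT3xHuBL aortas and 3.49, 4.42 and 4.04 in HuBL aortas, again with no overlap. This ratio was chosen after its values were seen.

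Heart tissue also expresses Myocd, and the summed markers of heart and skeletal muscle were higher in the same libraries. The 12 listed genes summed to 82.4, 67.9 and 64.2 CPM in BT3xHuBL aortas and to 42.4, 44.6 and 39.3 CPM in HuBL aortas. Of the 10 tested, 7 had a positive log2 fold change and 3 a negative one (median 0.28), and 1 was called. That gene, Tcap, which encodes a Z-disc protein, ranged from 34.7 to 48.4 CPM in BT3xHuBL aortas and from 16.3 to 19.0 CPM in HuBL aortas (1.22, SE 0.13, edgeR adjusted p = 0.0089). Tcap alone made up most of the difference in the summed markers. Myh6, the cardiac myosin heavy chain, was near 0 in both groups, at 1.43 to 3.41 CPM in BT3xHuBL aortas and 0.538 to 2.37 CPM in HuBL aortas. The cardiac troponin Tnnt2 ranged from 10.2 to 15.5 CPM in BT3xHuBL aortas and from 13.3 to 14.8 CPM in HuBL aortas, with a log2 fold change of -0.05. Clock genes stood higher in the same libraries too. The 9 listed clock genes summed to 744, 778 and 578 CPM in BT3xHuBL aortas and to 418, 457 and 453 CPM in HuBL aortas, with 8 of 9 above 0 and 1 called, Dbp. An unadjusted edgeR p under 0.05 was found for 8 of these 9, against 4.08% of all features. The 6 hepatocyte markers, of which 2 passed the filter, summed to 68.3, 62.3 and 40.8 CPM in BT3xHuBL aortas and to 26.9, 36.4 and 22.03 CPM in HuBL aortas. The part of these lists in the Myocd difference was not tested.

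Srf, the DNA-binding partner of Myocd, measured 77.0, 72.4 and 83.7 CPM in BT3xHuBL aortas and 87.4, 73.9 and 82.9 CPM in HuBL aortas. The groups overlapped, with a log2 fold change of -0.07 (95% interval -0.26 to 0.12). Of 16 other genes of Srf, MRTF and myocardin control, 9 had a positive log2 fold change and 7 a negative one (median 0.01), and none was called. Klf4, a factor that represses contractile genes in cultured smooth muscle cells, had the smallest p of these, at 94.2 to 97.0 CPM in BT3xHuBL aortas and 80.6 to 92.0 CPM in HuBL aortas (log2 fold change 0.18, edgeR adjusted p = 1.00). Gata6, a factor of the mature smooth muscle state, came next at 51.0 to 58.7 CPM in BT3xHuBL aortas and 58.4 to 64.7 CPM in HuBL aortas (-0.16). The coactivators that respond to actin, Mkl1 and Mkl2, stood at 0.18 and -0.00.

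**Figure D1:**
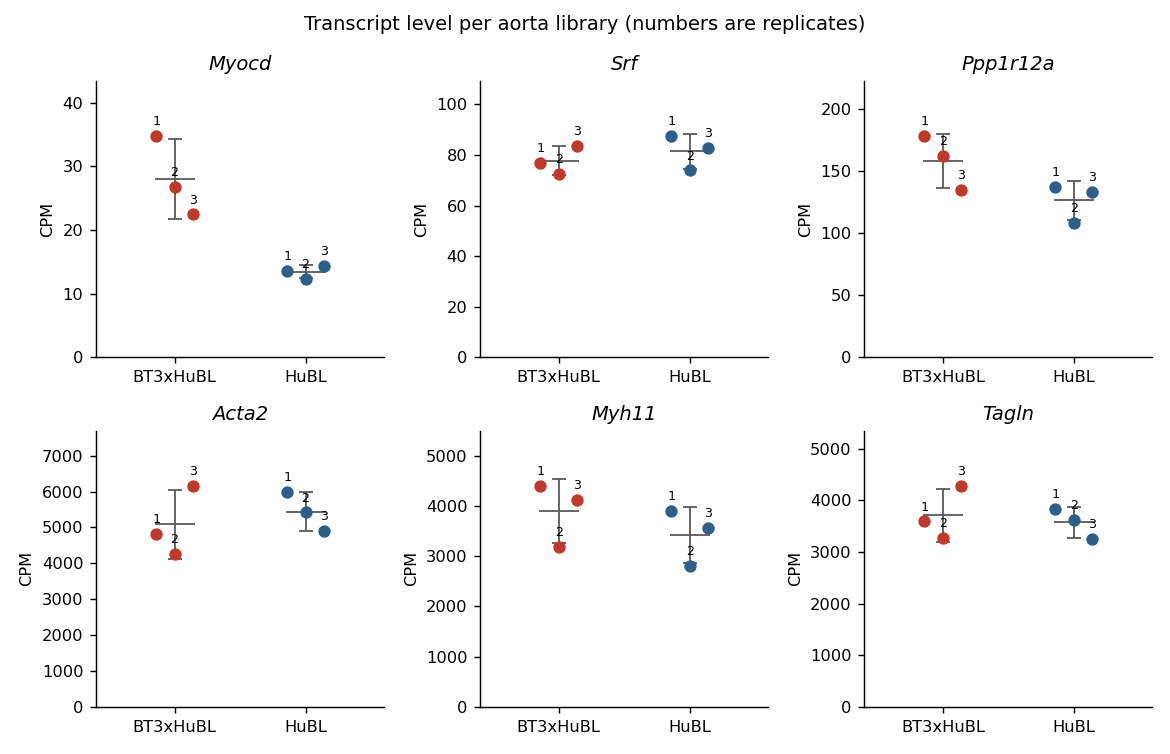
Transcript level in CPM (vertical axes, from 0) of Myocd, Srf, Ppp1r12a, Acta2, Myh11 and Tagln in each of 3 BT3xHuBL and 3 HuBL aorta libraries, with the group mean and SD as bars and the replicate number above each point. The 3 BT3xHuBL points of Myocd lie between 22.5 and 34.8 CPM and the 3 HuBL points between 12.4 and 14.4 CPM, while the groups overlap for the other 5 genes.

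Neither of the smooth muscle actins differed beyond the spread of the libraries. Acta2, the main actin of arterial smooth muscle (chromosome 19 from 34241090 to 34255590, minus strand), measured 4829, 4272 and 6156 CPM in BT3xHuBL aortas and 6000, 5417 and 4911 CPM in HuBL aortas. The highest and the lowest values were both BT3xHuBL libraries. The log2 fold change was -0.10 (SE 0.15, 95% interval -0.42 to 0.23), and it turned to 0.02 without BT3xHuBL replicate 2. Actg2, the enteric smooth muscle actin, measured 101, 117 and 113 CPM in BT3xHuBL aortas and 128, 125 and 105 CPM in HuBL aortas, also with overlap (-0.11, SE 0.09).

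Among the 7 genes of myosin and its regulation, 6 lay above 0, and 1 of them had an unadjusted p under 0.05. That gene, Ppp1r12a, encodes the targeting subunit that brings myosin phosphatase to myosin. It measured 178, 162 and 135 CPM in BT3xHuBL aortas and 137, 108 and 133 CPM in HuBL aortas. BT3xHuBL replicate 3 lay within the HuBL range and the other BT3xHuBL libraries above it. The log2 fold change was 0.33 (SE 0.12, 95% interval 0.06 to 0.59), and it missed the threshold after adjustment over all features (edgeR adjusted p = 1.00). Myh11, the smooth muscle myosin heavy chain (chromosome 16 from 14194535 to 14291372, minus strand), measured 4400, 3182 and 4128 CPM in BT3xHuBL aortas and 3905, 2801 and 3561 CPM in HuBL aortas. Its groups overlapped, with a log2 fold change of 0.19 (95% interval -0.16 to 0.54). Myl6, the essential light chain, measured 1501, 1497 and 1788 CPM in BT3xHuBL aortas and 1619, 1542 and 1346 CPM in HuBL aortas. The other 4, the regulatory light chain Myl9, the kinase Mylk, the phosphatase subunit Ppp1r12b and the phosphatase inhibitor Ppp1r14a, lay between -0.01 and 0.04.

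The 10 thin filament and intermediate filament genes were split evenly, with 5 above 0 and 5 below. Tagln, which encodes the actin-binding protein transgelin (chromosome 9 from 45929619 to 45936058, minus strand), measured 3591, 3271 and 4276 CPM in BT3xHuBL aortas and 3829, 3627 and 3253 CPM in HuBL aortas. The groups overlapped almost fully (log2 fold change 0.06, 95% interval -0.22 to 0.34). Synpo2, an actin-bundling protein of the Z-disc and dense body, measured 318, 281 and 313 CPM in BT3xHuBL aortas and 300, 214 and 264 CPM in HuBL aortas. Des, the muscle intermediate filament protein desmin, measured 59.1, 38.6 and 74.8 CPM in BT3xHuBL aortas and 77.5, 63.6 and 79.2 CPM in HuBL aortas. Synpo2 had the highest fold change of this group, at 0.23 (SE 0.12), and Des the lowest of all members, at -0.35 (SE 0.25). Cnn1, calponin, which restrains myosin activity, measured 605, 499 and 695 CPM in BT3xHuBL aortas and 609, 530 and 512 CPM in HuBL aortas. The tropomyosins Tpm1 and Tpm2, caldesmon (Cald1), smoothelin (Smtn), leiomodin (Lmod1) and Cnn2 lay between -0.05 and 0.03.

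Dense body and adhesion genes, whose products anchor actin to the cell border, had log2 fold changes between -0.15 and 0.13 in all 8 cases. Pdlim7, an actinin-binding adaptor, measured 178, 139 and 181 CPM in BT3xHuBL aortas and 199, 176 and 179 CPM in HuBL aortas (log2 fold change -0.15, SE 0.11). Csrp1, a LIM protein of the actin cytoskeleton, measured 1164, 1113 and 1312 CPM in BT3xHuBL aortas and 1184, 1054 and 1039 CPM in HuBL aortas (0.13, SE 0.10). Pdlim3, another actinin-binding adaptor, measured 111, 91.9 and 125 CPM in BT3xHuBL aortas and 109, 98.9 and 95.2 CPM in HuBL aortas (0.11, SE 0.11). All 3 pairs of groups overlapped. Vinculin (Vcl), filamin (Flna), actinin (Actn1) and the integrin subunits Itga7 and Itga8 lay between -0.04 and 0.07.

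Of the 6 channel, pump and receptor genes, 4 lay above 0. Notch3, the arterial smooth muscle Notch receptor, measured 81.9, 70.8 and 76.1 CPM in BT3xHuBL aortas and 60.6, 60.6 and 78.0 CPM in HuBL aortas, with HuBL replicate 3 inside the BT3xHuBL range (log2 fold change 0.20, SE 0.11). Cacna1c, the pore subunit of the L-type calcium channel, measured 23.6, 17.9 and 20.7 CPM in BT3xHuBL aortas and 16.6, 17.0 and 22.8 CPM in HuBL aortas. Pln, phospholamban, the brake on the calcium pump, measured 5.08, 2.56 and 3.35 CPM in BT3xHuBL aortas and 3.45, 2.74 and 3.34 CPM in HuBL aortas. Both overlapped, with log2 fold changes of 0.14 and 0.20. The potassium channel subunit Kcnmb1 and the G-protein regulator Rgs5 stood at 0.02 and -0.00. Pcp4, a calmodulin-binding peptide, had 7 to 18 counts in BT3xHuBL aortas and 10 to 12 counts in HuBL aortas, with a 95% interval of the log2 fold change from -1.68 to 1.41.

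**Figure D2:**
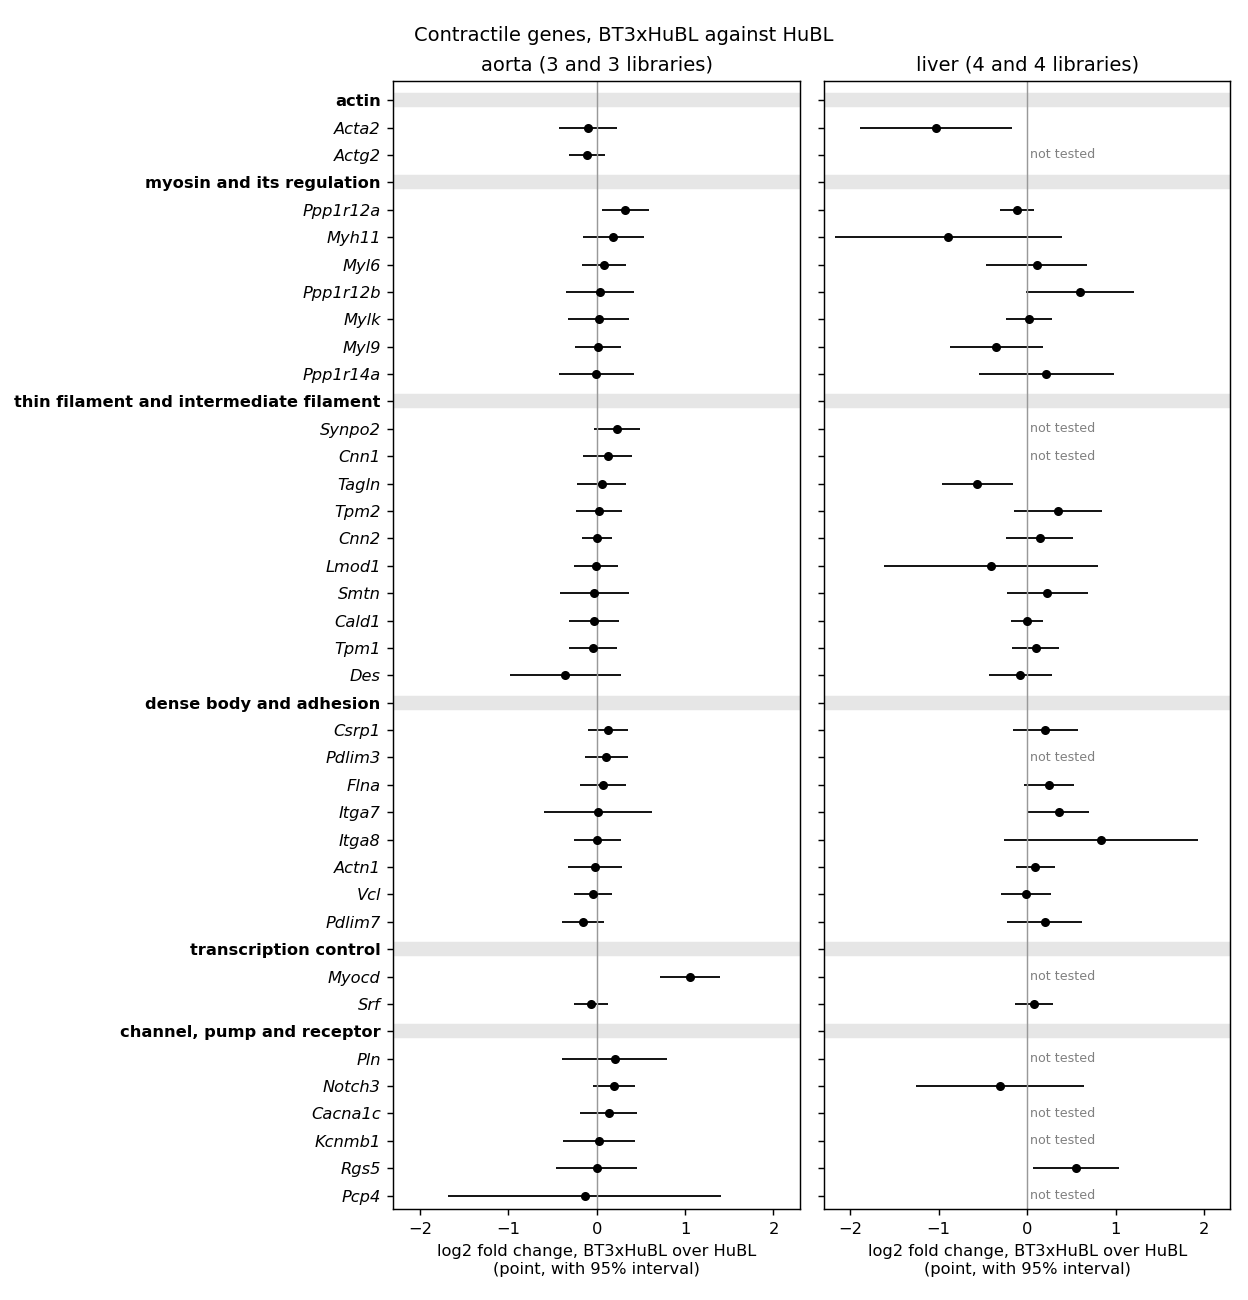
Log2 fold change of BT3xHuBL over HuBL (horizontal axes) with its 95% interval for each member, by role, in aorta (left) and liver (right). Myocd at 1.06 stands apart in aorta, where 32 of 35 members lie within 0.25 of 0, and the members' median SE is 0.13 in aorta and 0.19 in liver.

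The members varied together from library to library, and more among BT3xHuBL aortas than among HuBL aortas. Over the 33 members with a mean of at least 10 CPM, the median coefficient of variation was 14.1% in BT3xHuBL aortas and 9.82% in HuBL aortas, against 7.70% and 6.78% for all 9752 features at that level. The larger of both values belonged to BT3xHuBL for 26 of 35 members, which include the low-level Pcp4 and Pln. This count was not made over all features. Members that vary together are not independent, so the count rests on the spread of the same 3 libraries in each group. BT3xHuBL replicate 2 was the lowest of the 6 libraries for 21 of 35 members, whereas it was the lowest for 21.5% of all features tested. BT3xHuBL replicate 3 was the highest for 16 of 35 members, against 16.1% of all features. The members' median deviation from the gene mean was 0.03, -0.19 and 0.19 on the log2 scale in BT3xHuBL aortas and 0.11, -0.12 and -0.05 in HuBL aortas. Some members departed from this order: Myocd and Ppp1r12a were highest in BT3xHuBL replicate 1 and higher in replicate 2 than in replicate 3. Brown adipocyte markers summed to 77.5, 16.0 and 198 CPM in BT3xHuBL aortas and to 129, 128 and 65.5 CPM in HuBL aortas, with 4 of 5 below 0 in the genotype fit, and white adipocyte markers to 1182, 887 and 1003 CPM in BT3xHuBL aortas and 887, 920 and 666 CPM in HuBL aortas, with 8 of 8 above 0. BT3xHuBL replicates 2 and 3 were thus the lowest and the highest in brown adipocyte markers as well, and the part of these cells in the members' pattern was not tested.

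The sign of the members' genotype difference depended on single libraries. With all libraries, 21 of 35 members lay above 0 (60.0%, against 48.5% of all features). Without BT3xHuBL replicate 2, 30 lay above 0 and the median log2 fold change was 0.14, and without BT3xHuBL replicate 3, 12 lay above 0 and the median was -0.07. Without HuBL replicate 1, 28 lay above 0 (median 0.08). In all, 22 of 35 members changed the sign of their fold change when 1 library or another was left out.

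**Figure D3:**
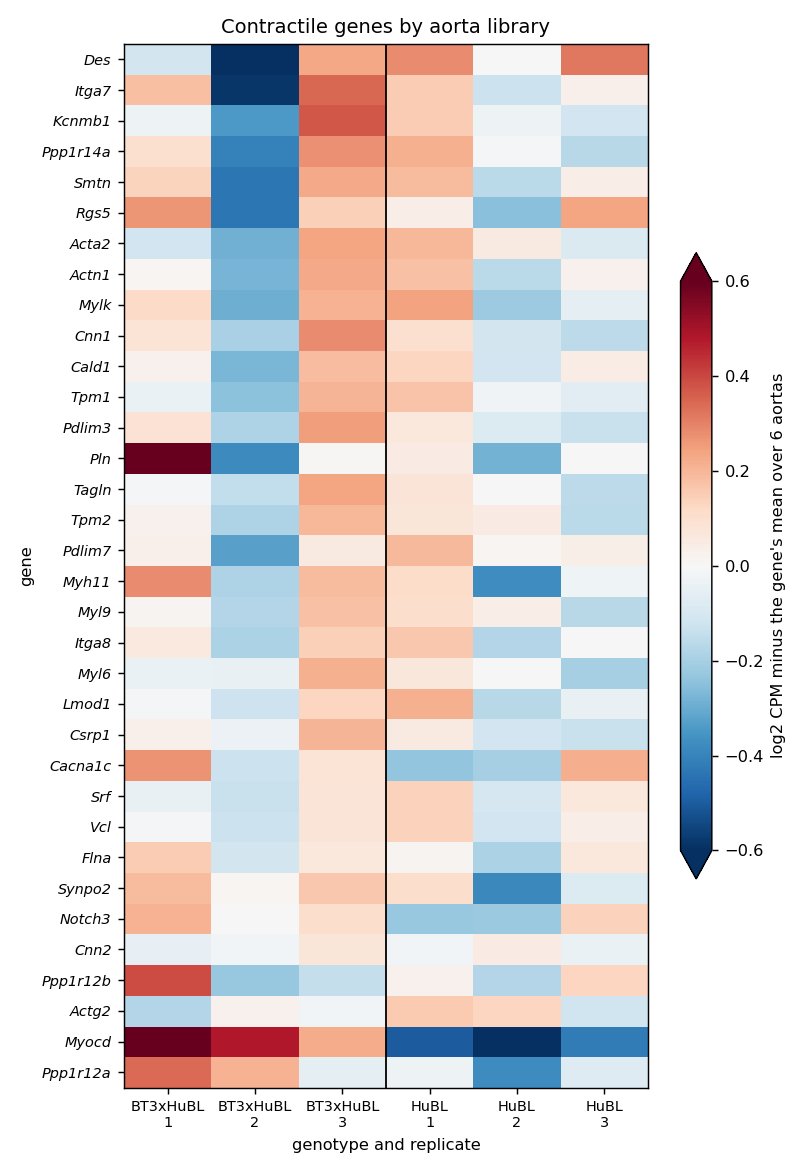
Deviation of log2 CPM from the gene's mean over 6 aorta libraries (colour, red above and blue below the mean, from -0.6 to 0.6) for 34 members, without Pcp4, sorted by BT3xHuBL replicate 3 minus replicate 2. The column of BT3xHuBL replicate 2 is mostly blue and that of replicate 3 mostly red, and Myocd near the bottom is red in all 3 BT3xHuBL columns and blue in all 3 HuBL columns.

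The levels of Myh11 across the 6 aorta libraries were compared with those of every other gene. Among non-member genes with a mean of at least 10 CPM, Pearson's r of log2 CPM with Myh11 was highest for Thop1 (0.994), Svil (0.990), Foxj2 (0.989), Pbxip1 (0.985) and Mical3 (0.984). Svil encodes supervillin, a membrane-linked actin and myosin binding protein, and Mical3 an actin-regulating oxidoreductase. The closest members were Flna (0.944) and Synpo2 (0.911). An r above 0.9 was reached by 2 of 32 members (6.25%) and by 156 of 9718 other genes (1.61%). The median r was 0.599 over the members, against -0.036 over the other genes, and Cnn2 (-0.267) and Actg2 (-0.523) ran the other way. These are descriptions over 6 libraries of unequal depth under a common scaling, with no test.

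The other pathway lists described here gave no call in the aorta. Of 27 tested genes of calcium handling and contraction receptors, 15 lay above 0 and 12 below (median 0.04), with the calcium channel subunit Cacnb2 at -0.38 (SE 0.14) and Pde5a, which degrades cyclic GMP, at 0.22 (SE 0.09). Of 16 genes of Notch and TGF-beta control, 10 lay above 0 (median 0.02), with the growth factor Tgfb2 at 0.42 (SE 0.11) and its signal carrier Smad3 at -0.20 (SE 0.10). Tgfb2 ranged from 103 to 126 CPM in BT3xHuBL aortas and from 74.9 to 96.5 CPM in HuBL aortas, with no overlap. That pattern was shown by 4.38% of all features in this direction and 9.27% in either. Of 24 broadly expressed cytoskeleton genes, 14 lay above 0 (median 0.02), with Tns1 at 0.13.

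Genes of the modulated smooth muscle state lay mostly lower in BT3xHuBL aortas, without passing the test. Of 18 such genes, 15 had a log2 fold change below 0 and 3 above, with a median of -0.22 and 0 called, whereas 48.5% of all features lay above 0. Of the 18, 3 had an unadjusted p under 0.05, against 4.08% of all features. Tnfrsf11b, which encodes the decoy receptor osteoprotegerin, ranged from 247 to 278 CPM in BT3xHuBL aortas and from 300 to 340 CPM in HuBL aortas (-0.28, SE 0.09, edgeR adjusted p = 0.899). Col8a1, a collagen made by activated smooth muscle cells, ranged from 238 to 291 CPM in BT3xHuBL aortas and from 290 to 334 CPM in HuBL aortas (-0.22, SE 0.10). The summed level of the list was 34279 to 40194 CPM in BT3xHuBL aortas and 40446 to 49315 CPM in HuBL aortas. Several of these genes are made by other plaque cells too: the macrophage markers summed to 5132 to 7234 CPM in BT3xHuBL aortas and 5910 to 6898 CPM in HuBL aortas, and the fibroblast markers, which share Dcn and Lum with this list, to 9080 to 9349 CPM in BT3xHuBL aortas and 9654 to 10359 CPM in HuBL aortas. Their part in the difference was not tested.

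In the liver, no member passed the test of BT3xHuBL against HuBL, and the groups did not overlap for 1 of them, Tagln. The cells that these liver transcripts come from were not determined. The filter on low counts left 26 of 35 members, and Actg2, Cacna1c, Cnn1, Kcnmb1, Myocd, Pcp4, Pdlim3, Pln and Synpo2 were not tested there. None of the 26 was called, by edgeR (background 0.0%, 0 of 12453 features), by DESeq2 (1.06%) or by limma-voom (0.0%). An unadjusted p under 0.05 was found for 4 of 26 (15.4%), against 11.1% of all features tested. The fold change lay above 0 for 16 of 26 (61.5%, against 51.8% of all features).

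Tagln measured 6.92, 5.02, 7.48 and 8.21 CPM in BT3xHuBL livers and 9.40, 10.03, 13.0 and 8.55 CPM in HuBL livers. Every BT3xHuBL liver lay below every HuBL liver, which 3.58% of all features tested showed in this direction and 6.57% in either. The feature name of Tagln carries what was taken as a mark of overlap with another gene. The part of shared reads in these low levels was not tested. The log2 fold change was -0.56 (SE 0.18, 95% interval -0.97 to -0.16), with an edgeR adjusted p of 0.329 that ranged from 0.162 to 0.560 over 14 alternatives. An exact two-sided permutation test gave p = 0.0286, the smallest that 4 against 4 libraries allow, for a gene picked out of 26 by this pattern. Acta2 measured 1.70, 1.98, 2.45 and 3.57 CPM in BT3xHuBL livers and 3.41, 3.16, 9.48 and 3.99 CPM in HuBL livers. The highest BT3xHuBL liver overlapped the lowest HuBL livers, and HuBL replicate 3 stood far above the rest. Its log2 fold change of -1.03 (SE 0.39, edgeR adjusted p = 0.385) was -0.53 without that library. Myh11 measured 1.34, 2.64, 2.39 and 5.12 CPM in BT3xHuBL livers and 2.84, 4.40, 11.7 and 2.70 CPM in HuBL livers, with overlap, and its -0.89 (SE 0.56) was -0.19 without HuBL replicate 3. The same library held 16 of the 21 counts of Cnn1 in HuBL livers and the single count of Myocd in any liver. The 6 smooth muscle markers summed to 10.7, 10.4, 13.0 and 18.1 CPM in BT3xHuBL livers and to 16.7, 18.8, 37.2 and 15.5 CPM in HuBL livers.

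Among the members above 0 in the liver, Rgs5, a regulator of G-protein signalling found in smooth muscle and pericytes, measured 6.13, 3.83, 3.74 and 5.77 CPM in BT3xHuBL livers and 2.65, 4.01, 3.46 and 3.21 CPM in HuBL livers. BT3xHuBL replicates 1 and 4 lay above all HuBL livers and the other pair lay within them (log2 fold change 0.55, SE 0.22, edgeR adjusted p = 0.408). Itga7, a laminin receptor subunit, measured 9.47, 10.5, 9.55 and 11.3 CPM in BT3xHuBL livers and 7.26, 9.88, 6.17 and 8.61 CPM in HuBL livers, with HuBL replicate 2 inside the BT3xHuBL range (0.36, SE 0.16). Itga8, an integrin subunit that hepatic stellate cells also express, measured 12.2, 2.64, 10.8 and 4.05 CPM in BT3xHuBL livers and 2.78, 4.09, 5.87 and 3.99 CPM in HuBL livers, so that BT3xHuBL replicates 1 and 3 stood above all HuBL livers, replicate 4 within them and replicate 2 below them (0.83, SE 0.48). Stellate cell markers summed to 103, 69.2, 87.3 and 93.5 CPM in BT3xHuBL livers and to 69.1, 69.1, 66.2 and 86.4 CPM in HuBL livers, with 5 of 6 genes above 0, and their part in these values was not tested. Cald1, Mylk, Vcl and Srf, which are broadly expressed, lay between -0.01 and 0.08. Of the myosin and filament genes not yet given, Ppp1r12b (0.60, SE 0.28) and Tpm2 (0.35, SE 0.23) had the highest fold changes, and Lmod1 (-0.41, SE 0.55) and Myl9 (-0.35, SE 0.24) the lowest.

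**Figure D4:**
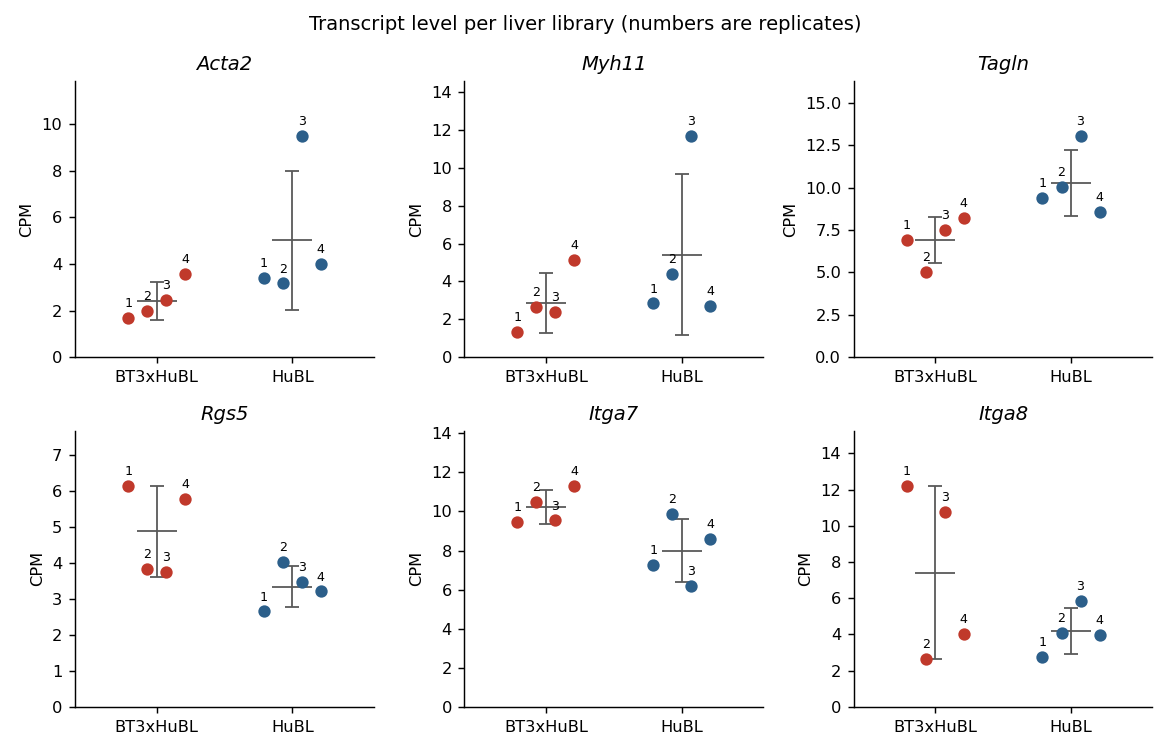
Transcript level in CPM (vertical axes, from 0) of Acta2, Myh11, Tagln, Rgs5, Itga7 and Itga8 in each of 4 BT3xHuBL and 4 HuBL liver libraries, with the group mean and SD as bars and the replicate number above each point. HuBL replicate 3 stands above the rest for Acta2 (9.48 CPM) and Myh11 (11.7 CPM), and the groups are apart for Tagln alone.

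The genotype difference was not shown to differ between the tissues for any member. Of 34 members tested in a single fit of all libraries, 0 were called by edgeR (background 0.0%, 0 of 14912 features) or by DESeq2 (0.215%), and 2 had an unadjusted p under 0.05 (5.88%, against 8.16% of all features). Ppp1r12a had a difference of log2 fold changes, aorta minus liver, of 0.45 (SE 0.15, edgeR adjusted p = 0.514), and Tagln one of 0.63 (SE 0.25, 0.562). For Ppp1r12a the liver values were 30.4, 32.3, 30.1 and 32.4 CPM in BT3xHuBL livers and 33.4, 30.0, 34.2 and 37.2 CPM in HuBL livers, where the groups overlapped (log2 fold change -0.11, SE 0.09). The interaction of Myocd rests on a single liver count and is not given.

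Between the tissues, the contractile genes were higher in aorta than in liver in both genotypes, by amounts that differed widely between members. All 34 members tested were called higher in aorta, in BT3xHuBL mice (background for higher calls 43.3%) and in HuBL mice (44.0%). Tissue and library series coincide in the labels, so tissue and library preparation cannot be told apart. CPM in this comparison were scaled over all 14 libraries and differ from those above. The same 6 members had the smallest p in both genotypes, namely Myl9, Tagln, Cnn2, Flna, Csrp1 and Smtn (for Myl9, edgeR adjusted p = 1.03e-14 in BT3xHuBL and 1.21e-14 in HuBL mice). Myl9 ranged from 909 to 1165 CPM in BT3xHuBL aortas and from 2.07 to 2.64 CPM in BT3xHuBL livers, a log2 fold change of 8.75 (SE 0.19), and from 916 to 1100 CPM in HuBL aortas and 2.23 to 4.02 CPM in HuBL livers (8.37, SE 0.19). Tagln gave 8.31 in BT3xHuBL and 7.68 in HuBL mice, Smtn 6.42 and 6.67, Flna 6.38 and 6.54, Csrp1 5.64 and 5.70, and Cnn2 4.69 and 4.82. No library of one tissue overlapped the other for these genes.

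The other members spanned a wide range of tissue differences. The smallest tissue difference was that of Cald1, an actin-binding protein with a non-muscle form, at 707 to 978 CPM in BT3xHuBL aortas against 466 to 490 CPM in BT3xHuBL livers (log2 fold change 0.83, SE 0.12), and at 778 to 933 CPM in HuBL aortas against 463 to 496 CPM in HuBL livers (0.84, SE 0.12). Srf gave 1.55 in BT3xHuBL and 1.69 in HuBL mice, Ppp1r12a 1.58 and 1.13, and Mylk 1.86 and 1.85. Of the members with over 100 liver counts in each genotype, Acta2 had the largest difference, at 10.27 in BT3xHuBL (SE 0.41, 156 liver counts) and 9.33 in HuBL mice (SE 0.39, 292 liver counts), followed in BT3xHuBL by Myh11 at 9.64 (SE 0.56), which gave 8.57 (SE 0.54) in HuBL mice and 9.26 there without HuBL liver replicate 3. Genes with few liver counts stood among the largest as well, with values that rest on single libraries. Myocd had 5165 counts over the BT3xHuBL aortas and 0 over the BT3xHuBL livers, which makes its share of counts at least 591-fold higher in aorta, against a floor of 3 counts over the group. In HuBL mice it had 2293 counts in the aortas and 1 in the livers, in replicate 3, a ratio of 821 (95% interval 147 to 32400, counting error only). Cnn1 had 110788 counts in BT3xHuBL aortas and 9 in BT3xHuBL livers, a ratio of 4220 (2230 to 9240), and 93310 counts in HuBL aortas and 21 in HuBL livers, a ratio of 1590 (1040 to 2570). These intervals leave out the spread between libraries: without BT3xHuBL liver replicate 4 the fitted log2 fold change of Cnn1 was 12.40 in place of 11.28, and without HuBL liver replicate 3 it was 11.52 in place of 9.82. Kcnmb1 had 1 count in BT3xHuBL livers, in replicate 4, for a ratio of 6830 (1230 to 270000). It had 6 counts in HuBL livers, 5 of them in replicate 3, for a ratio of 1070 (492 to 2920), and without that library its fitted log2 fold change was 11.35 in place of 9.24. Pcp4 was not tested, with 35 counts in BT3xHuBL aortas against 2 in BT3xHuBL livers and 33 in HuBL aortas against 4 in HuBL livers. Cald1, Srf, Ppp1r12a, Mylk, Acta2, Myh11, Myocd, Cnn1 and Kcnmb1 were picked here for their place in this order, after their values were seen.

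**Figure D5:**
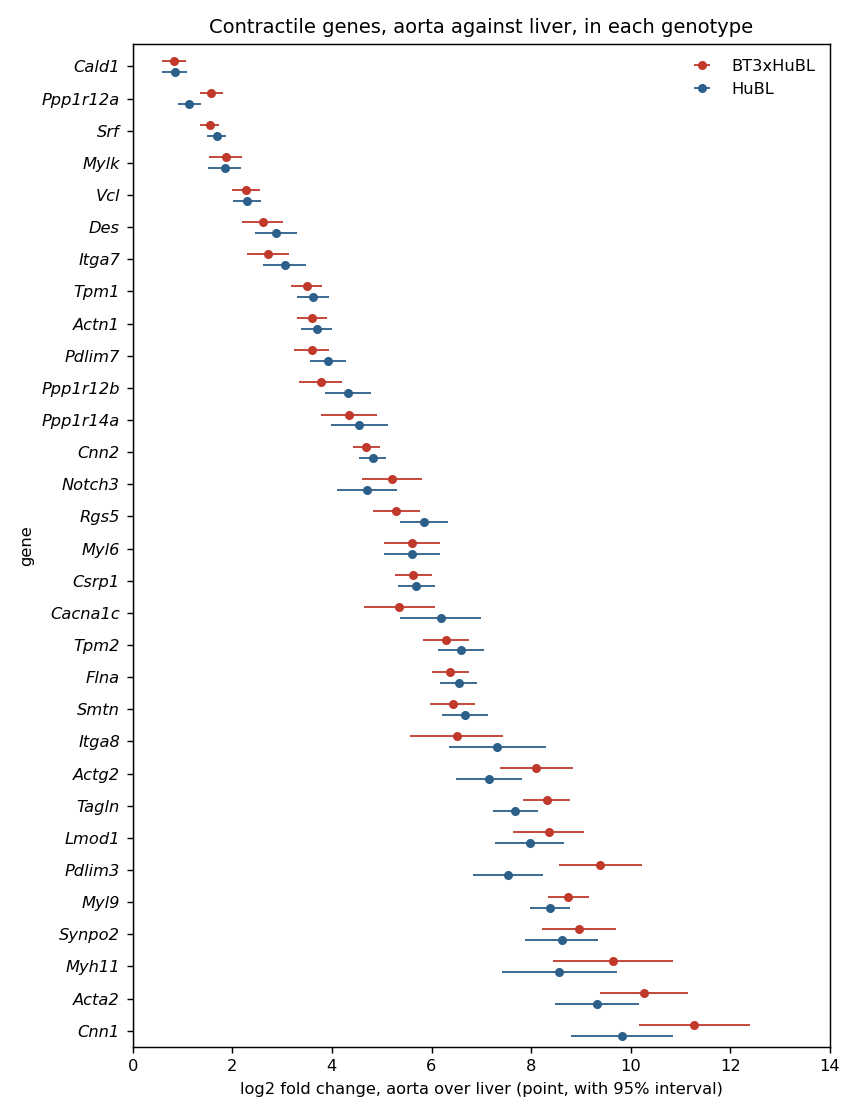
Log2 fold change of aorta over liver (horizontal axis) with its 95% interval for members with more than 3 liver counts in each genotype, in BT3xHuBL (red, upper point of each row) and HuBL mice (blue). All points lie above 0, from 0.83 for Cald1 in BT3xHuBL mice up to the actin and calponin genes at the bottom.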

How the data were processed

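RNA was measured in 14 aorta and liver libraries, whose groups come from the tissue and genotype labels. Lexogen QuantSeq V2 libraries, which read transcripts near their 3′ ends, were prepared from RNeasy RNA, per the labels' protocols. The authors deposited raw counts per feature. HTSeq 2.0 and GRCm38 are named in the submitters' processing notes; aligner and strand setting were not given in the sources used here. Of the members, 7 (Itga7, Itga8, Mylk, Pdlim7, Srf, Tagln and Tpm2) carry the suffix _IMP_OVL in the feature name. The sources do not give its meaning. It was taken as a mark of overlap with another gene, and if so, reads shared with that gene could move these members.

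The genotype effect was fitted within each tissue using edgeR 4.0.16 (R 4.3.3; filterByExpr, TMM, robust quasi-likelihood F-test, two-sided, Benjamini-Hochberg adjustment over all features, threshold 0.05). The interaction and the tissue contrasts came from a fit of all 14 libraries. Standard errors and 95% intervals come from the same fits, and fold changes use a prior count of 0.125. Correlations used log2 CPM with a prior count of 2. Alternatives were RLE size factors, no filter on low counts, limma-voom (limma 3.58.1), DESeq2 1.42.0, all libraries in 1 fit, the replicate number as a block and each library left out. Scripts were tested on simulated data.

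The members, gene lists and tests were chosen with earlier results of these data known. Values per library are given for up to 3 members of each role with the smallest p in aorta and for Acta2, Myh11 and Tagln, for members called in the tissue contrasts up to 6 by smallest p, and for 2 genes of smallest p per other list; 1 of these lists and 1 of these genes are not reported here. The liver rule covers called members only, so the liver genes and Mkl1 and Mkl2 were named after their values were seen. Positions are from GENCODE M21, and promoters from RefSeq. SciPy 1.17.1 gave the exact permutations, and matplotlib 3.10.9 the plots. Counting intervals and floors cover counting error only.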

Additional observations from a re-analysis of the deposited data

Results flagged for a closer look

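In 52 groups of 4 liver libraries (26 members in each genotype), 3 members had a library that stood far from the others of its group, and chance gives about 1 such group in 20. The number found is near that share. Acta2 measured 9.48 CPM in HuBL liver replicate 3, against 3.16 to 3.99 CPM in the other HuBL livers. Vcl measured 60.2 CPM in HuBL liver replicate 2, against 49.4 to 50.1 CPM in the others. Pdlim7 measured 9.28 CPM in HuBL liver replicate 1, against 6.10 to 6.58 CPM in the others. All 3 were the highest values of HuBL groups, each in another library.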

How the results depend on the processing

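The aorta fit called 4 features with all libraries, 9 without the filter on low counts, 14 with the replicate block, 0 with limma-voom, 75 with DESeq2, and 0 to 27 with 1 library left out, the 27 without BT3xHuBL replicate 3. It called 0 members, 1 without the filter, 1 with DESeq2 and 0 to 1 with 1 library left out, each time Myocd. The liver fit called 0 features, 10 with the replicate block, 130 with DESeq2, 5 with all libraries in 1 fit and 0 to 5 with 1 library left out, and no member in any of these. The interaction called 0 features, 42 with DESeq2 and 0 to 3 with 1 library left out. Deviations of same-numbered libraries of the 2 genotypes had r from -0.06 to 0.14 in aorta and -0.04 to 0.16 in liver. Differently numbered libraries had r from -0.14 to 0.14 in aorta and -0.22 to 0.18 in liver. With 3 or 4 libraries in a group, such values cannot show whether the numbers pair the samples. With the replicate block Myocd gave 1.04 (edgeR adjusted p = 0.0528). All 34 members stayed called higher in aorta under every alternative run. The sign of the fold change turned for 22 members in aorta and 8 in liver with 1 library left out; the cause of these shifts was not tested. Depth limits the precision for Pcp4 in aorta and for the 9 untested members in liver.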
